A study of Arvicanthis niloticus with 7 samples.

Results

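The insulin signalling genes described here are 49 genes that carry the insulin signal inside the cell, from the receptors through docking proteins and lipid kinases to the Akt and mTOR branches, together with the proteins that restrain it. They were chosen by gene symbol, and a gene was measured when at least 1 of its probes had a detection p under 0.01 on at least 2 of the 7 arrays. All 49 have an annotated gene of the same symbol in the RefSeq annotation of the Nile rat (NR). Of these, 44 had a probe under that symbol on the array and 21 of the 44 (47.7%) were measured, whereas 4241 of all 16110 symbols with a probe were, which is 26.3%. *Cblb*, *Hras*, *Rps6kb1*, *Sos2* and *Tbc1d4* had no probe under the symbol, and the other 23 genes had only probes that did not pass this rule. The 71 probes of the 44 genes included 25 that passed, and 4 genes had more than 1 of these.

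The study asked how palm fruit juice (PFJ), a water-soluble phenolic extract of the oil palm fruit, changes gene expression in the liver of young male NRs, a rodent that develops type 2 diabetes on diets rich in carbohydrate. Control NRs ate a diet in which carbohydrate gave 70%, fat 10% and protein 20% of the energy, and the PFJ group ate this diet with PFJ added to 5.4 g of gallic acid equivalents per kg, both from 3 weeks of age and for 4 weeks. From frozen livers the study chose 4 RNA samples per diet by RNA integrity and ribosomal RNA ratio. These were hybridised to Illumina MouseRef-8 Version 2 BeadChips. The paper states that outlier samples were removed by hierarchical clustering, without naming them, and the series holds 4 control arrays and 3 PFJ arrays. The labels do not tie arrays to animals, slides or days. For its real-time PCR on the same RNA aliquots the paper speaks of biological replicates, without saying that each array is of a separate animal. A p-value here therefore measures only how these samples vary, which may be technical variation. The probes were designed on mouse transcripts, so an undetected probe may reflect a NR sequence that it does not match as well as a low transcript level. Values are log2 signals after background correction and quantile normalisation, on which the lowest detected probe of an array lay between 6.22 and 6.52.

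Insulin binds a receptor tyrosine kinase that phosphorylates itself and the insulin receptor substrates, and these docking proteins recruit phosphatidylinositol 3-kinase to the membrane. The lipid made by this kinase brings PDK1 and Akt together, and active Akt inhibits glycogen synthase kinase 3, keeps FoxO factors out of the nucleus and releases mTOR complex 1 from the tuberous sclerosis proteins, which in the liver favours glycogen and fat synthesis over glucose output. Much of this relay runs through phosphorylation, which transcript levels do not read.

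The control arrays were not alike. Over the 4241 genes, which are not independent replicates, the r between control replicates 3 and 4 was 0.985, their r with any of the other 5 arrays was 0.726 to 0.745, and that among those 5 was 0.962 to 0.982. A kidney marker list held 30 genes, of which 24 had a probe and 11 were measured, with medians of 11.34 and 11.04 on these control arrays against 4.97 to 5.24 on the others. The detection rule admitted 8 of the 11 through these 2 arrays alone, so those had to lie high there. Among them *Umod*, the urinary protein uromodulin, read 16.01 and 16.03 there and at most 6.06 elsewhere. The other 3 were detected on every array and also lay above all others there, such as *Miox*, an enzyme of the renal tubule, at 15.99 and 15.95 against 11.35 to 11.94. Of 18 measured hepatocyte genes, 8 were detected on each of these arrays and 14 to 18 on the others, with medians of 5.73 and 5.59 against 12.94 to 13.75. On these 2 arrays 13 of the 18 lay below the other 5. *Apoa1*, *Ttr*, *Fga* and *Serpina1a* were undetected on every control array and were admitted through PFJ arrays alone. They enter these medians but do not tell these arrays from control replicates 1 and 2. *Hpd* was not lower on these arrays, at 11.76 and 11.45. *Ahsg*, the plasma protein fetuin, was detected throughout and read 8.34 and 8.42 there against 16.01 to 16.08 elsewhere, and *Cps1* of the urea cycle and the clotting factor gene *F2* were undetected on both. By these markers the 2 arrays stood apart from the other arrays labelled liver. The part of the kidney signal in the results below was not tested, and each comparison is given with all 7 arrays and without these 2. In tissue RNA, fewer cells of a type and less RNA per cell cannot be told apart.

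Insulin signalling genes moved with these arrays. Control replicates 3 and 4 lay above all 5 others for 13 of the 21 measured genes (61.9%), where 31.4% of all genes did, and below them for 4 (19%), where 27.4% of all genes did. Of the genes below, *Grb14* alone was detected on these arrays, and *Trib3*, *Shc1* and *Rheb* were not. The gap of *Shc1* and *Rheb* to the nearest array, an undetected PFJ replicate 3, was -0.06 and -0.00. *Igf1r* was the 1 gene of the 13 admitted through these 2 arrays alone, and among genes detected on any other array 12 of 20 (60%) lay above, against 25.6% of all such genes. The exceptions were *Inppl1*, *Pik3r1*, *Mtor* and *Rictor*, for which they overlapped with the others. The median difference of the 2 arrays from the mean of the other 5 was 0.66 for the insulin signalling genes and 0.01 for all genes, and its median size was 1.28 against 0.65. These counts describe the arrays and carry no test.

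**Figure D1:**
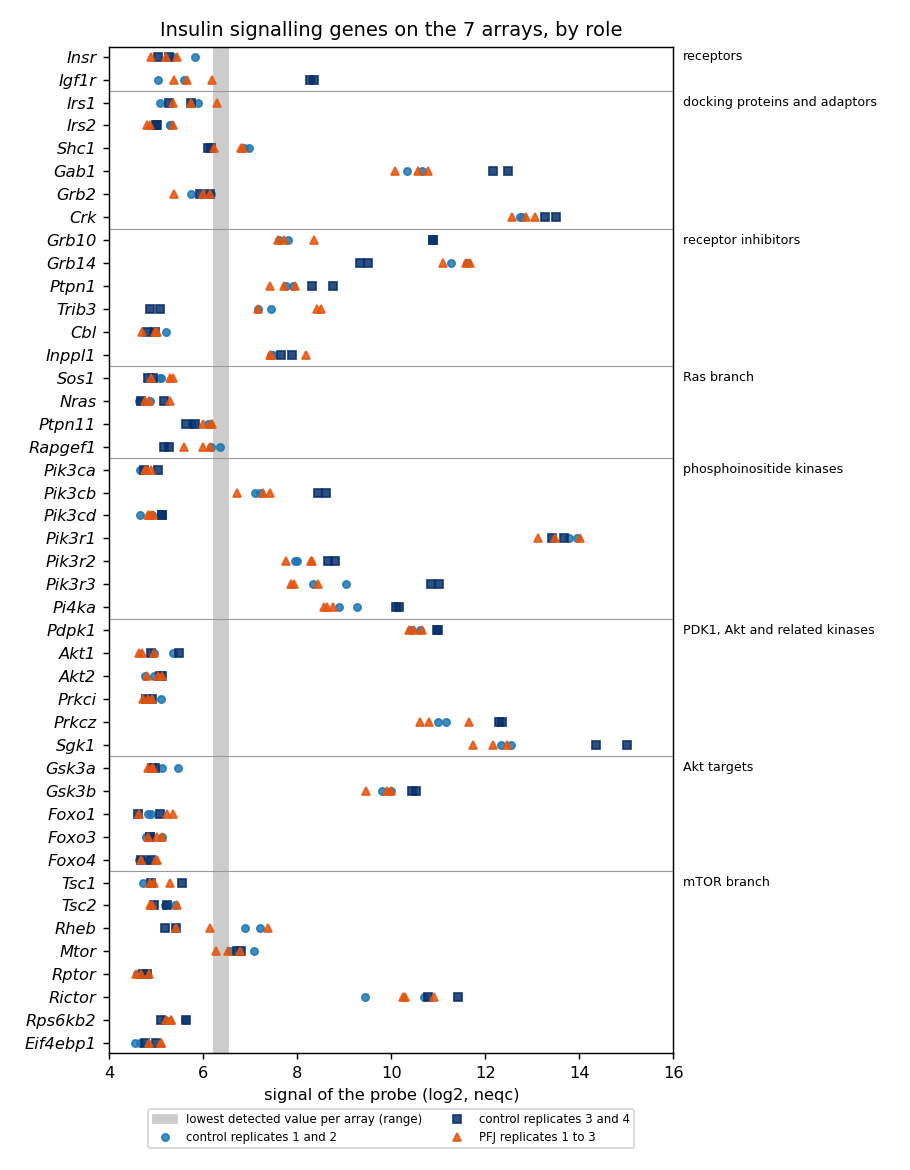
Log2 signal (horizontal axis) of the 44 insulin signalling genes with a probe, ordered by role, with 1 point per array and the grey band marking the lowest detected value of the arrays, 6.22 to 6.52. Core members such as *Insr*, *Irs2*, *Akt1*, *Akt2* and *Foxo1* lie left of the band on every array, and control replicates 3 and 4 (squares) stand apart from the other 5 arrays for *Igf1r*, *Grb10*, *Sgk1*, *Pik3r3* and *Trib3*.

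Against the control diet, PFJ gave no insulin signalling gene that passed an adjusted p under 0.05 in limma, which 0 of all 4241 genes (0%) did. The lowest adjusted p was 0.535 among the 21 genes and 0.0701 among all genes. At an unadjusted p under 0.05 in limma, *Pi4ka* and *Pik3r3* were lower with PFJ, 2 of 21 or 9.52%, where 2.36% of all genes (100) were lower. *Trib3*, at background on control replicates 3 and 4, was higher, 1 of 21 or 4.76%, where 2.12% of all genes (90) were. With arrays set to equal medians in place of quantile normalisation, all genes shifted by a median of -0.22 and split into 157 lower and 40 higher, and with the authors' normalised values into 148 and 56. The median log2 fold change was -0.26 over the 21 genes, with a range from -1.73 to 1.89, and -0.01 over all genes. It was negative for 16 of the 21 (76.2%) and for 51.1% of all genes. *Pi4ka* was the only one of the 21 with every PFJ array below every control array, as were 4.13% of all genes, and 0 of the 21 had every PFJ array above, as did 3.32%.

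Without control replicates 3 and 4, a choice made with earlier results of these data known, the same comparison held 20 insulin signalling genes among 3773. None of the 20 passed an unadjusted p under 0.05 in limma, which 3.53% of all genes did, the lowest being 0.0928 for *Pi4ka*. None passed an adjusted p, which 1 gene outside the pathway, *Qars*, or 0.0265% did. *Qars* was detected on control replicates 1 and 2 alone, so the detection rule admitted it through the group where it is high. The median log2 fold change of the 20 genes was -0.04, with a range from -0.68 to 0.73, against -0.01 for all genes, and 13 of the 20 (65%) were negative, against 52.6%. The median size of the change was 0.20 against 0.17, where with all 7 arrays it had been 0.49 against 0.37. PFJ and control values did not overlap for *Pi4ka* and *Shc1*, both lower with PFJ, 10% of the 20, where 16% of all genes did not overlap.

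**Figure D2:**
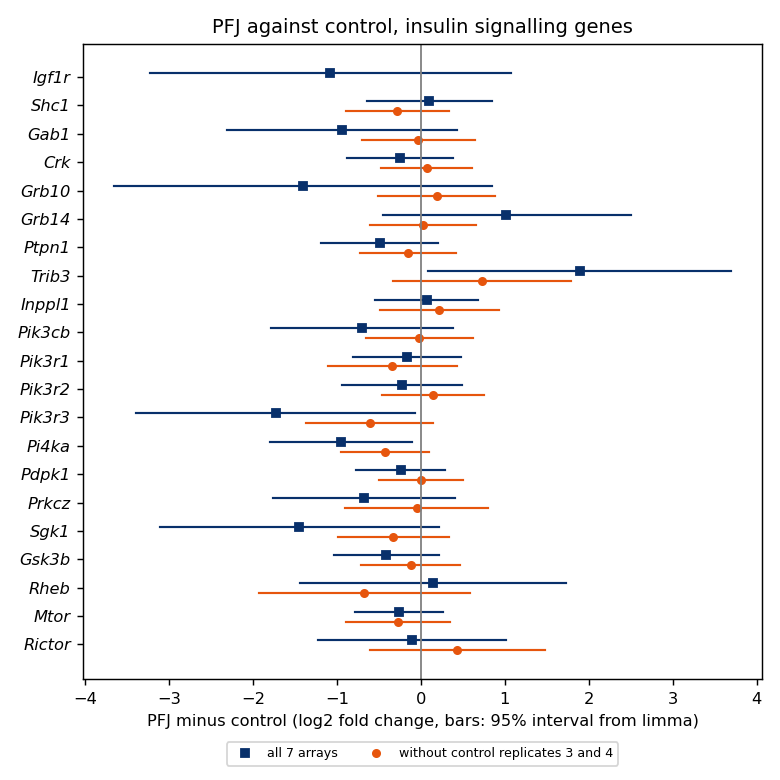
Log2 fold change of PFJ against control for the 21 measured insulin signalling genes, with 95% intervals from limma, over all 7 arrays (squares) and without control replicates 3 and 4 (circles). The squares range from -1.73 to 1.89 and the circles from -0.68 to 0.73, with every circle's interval spanning 0. *Igf1r* has no circle, since it was detected on those control arrays only.

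At the receptors, *Insr*, the insulin receptor gene itself, was at background on every array. Its log2 signal was 5.36, 5.83, 5.27 and 5.04 on control replicates 1 to 4 and 4.88, 5.21 and 5.44 on PFJ replicates 1 to 3, with a lowest detection p of 0.0351. All 7 values lay under the lowest detected probe of any array, so that no level could be compared between the diets. *Igf1r*, which encodes the receptor for insulin-like growth factors, read 5.60, 5.03, 8.28 and 8.35 on the control arrays and 5.37, 5.65 and 6.19 on the PFJ arrays, and was detected on control replicates 3 and 4 alone. Its log2 fold change of -1.08 (95% interval -3.23 to 1.07, adjusted p = 0.578 from limma) rests on control replicates 3 and 4 and did not pass. With each PFJ value raised to the lowest detected value of its array, the mean log2 value of the 4 controls stood 1.305-fold above that of PFJ. This is not a lower bound, since the control mean includes the undetected values of control replicates 1 and 2. *Igf1r* passed the detection rule only through the 2 control arrays that carry the kidney markers, and it was undetected on control replicates 1 and 2 as it was with PFJ.

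Among the docking proteins and adaptors, 3 of 6 genes were measured, and neither insulin receptor substrate was. *Irs1* read 5.08, 5.88, 5.28 and 5.75 on the control arrays and 5.35, 5.73 and 6.29 on the PFJ arrays, and reached a detection p under 0.05 on 4 arrays but not under 0.01. *Irs2*, the substrate that carries much of the insulin signal in mouse liver, read 5.29, 5.30, 5.00 and 5.01 against 4.86, 4.81 and 5.35, with a lowest detection p of 0.118. Neither substrate passed a detection p under 0.01 on any array. The adaptor gene *Grb2* did not either, with a lowest detection p of 0.0125 and one under 0.05 on 6 arrays. *Gab1*, a docking protein that gathers phosphatidylinositol 3-kinase and Ras regulators, read 10.65, 10.34, 12.48 and 12.17 on the control arrays and 10.56, 10.08 and 10.77 on the PFJ arrays. The log2 fold change was -0.94 ± 0.58 (SE) with all arrays and -0.03 ± 0.28 without control replicates 3 and 4, which were the only high ones. Omission of control replicate 2 alone gave -1.29 with an unadjusted p of 0.0471 from limma.

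*Shc1*, an adaptor that links receptors to the Ras branch, read 6.97, 6.87, 6.17 and 6.10 in controls and 6.85, 6.80 and 6.23 with PFJ, and was detected on 2 of 4 and 2 of 3 arrays. It lay close to the detection limit, and its log2 fold change was 0.10 ± 0.31 (SE) with all arrays and -0.28 ± 0.25 without control replicates 3 and 4, where each PFJ value lay under both remaining controls. A second *Shc1* probe that passed read 6.36, 7.36, 6.02 and 5.90 against 6.26, 6.40 and 6.90, where the groups overlapped with and without those arrays. *Crk*, which couples phosphorylated docking proteins to guanine nucleotide exchange factors, spanned 12.57 to 13.50 over the 7 arrays, with log2 fold changes of -0.25 ± 0.27 and 0.07 ± 0.22 in the same fits.

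The inhibitors of the receptor and its first steps gave 5 measured genes out of 7, and they included the members farthest apart on control replicates 3 and 4. *Grb10*, an adaptor that binds the active receptor and dampens it, read 7.80, 7.62, 10.88 and 10.89 on the control arrays and 7.59, 7.72 and 8.36 on the PFJ arrays. The lower of the values on control replicates 3 and 4 exceeded the highest of the other 5 arrays by 2.52, the widest such gap of the 21 genes. The log2 fold change was -1.40 ± 0.95 (SE; 95% interval -3.65 to 0.85) with all arrays and 0.19 ± 0.29 without those 2. *Grb14*, the related adaptor that inhibits the receptor in liver, ran the other way, with 11.60, 11.27, 9.51 and 9.33 in controls and 11.67, 11.59 and 11.10 with PFJ. The gap from the lowest of the other 5 arrays down to control replicates 3 and 4 was -1.58, and the log2 fold change was 1.02 ± 0.62 with all arrays, 1.41 without control replicate 1 (unadjusted p = 0.0432 from limma) and 0.02 ± 0.26 without replicates 3 and 4. The sign of the *Grb10* and *Grb14* differences thus followed the side on which those 2 arrays lay.

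*Trib3* encodes a pseudokinase that binds Akt and holds back its activation in mouse liver. Its log2 signal was 7.17, 7.45, 5.09 and 4.86 on control replicates 1 to 4 and 8.50, 7.17 and 8.41 on PFJ replicates 1 to 3. It was detected on control replicates 1 and 2 and on all 3 PFJ arrays, so that the values on control replicates 3 and 4 are background, and PFJ replicate 2 lay within the range of the controls. The means were 6.14 ± 1.36 (SD, n = 4) for controls and 8.03 ± 0.74 (SD, n = 3) for PFJ. The log2 fold change of 1.89 ± 0.76 (SE; 95% interval 0.08 to 3.69) had an unadjusted p of 0.0429 and an adjusted p of 0.535 from limma. Without control replicates 3 and 4 it was 0.73 ± 0.44 (95% interval -0.33 to 1.79, unadjusted p = 0.144 from limma). It was 1.51 without control replicate 3, 1.45 without control replicate 4, 1.66 without PFJ replicate 1 and 1.72 without PFJ replicate 3, where limma gave an unadjusted p of 0.0867, 0.0833, 0.125 and 0.122.

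*Ptpn1*, the phosphatase that removes phosphate from the insulin receptor, spanned 7.42 to 8.75, was highest on control replicates 3 and 4, and had log2 fold changes of -0.49 ± 0.30 (SE) and -0.15 ± 0.23 with and without them. *Inppl1*, a lipid phosphatase that degrades the product of phosphatidylinositol 3-kinase, spanned 7.43 to 8.18 and had 0.07 ± 0.26 and 0.22 ± 0.29. Neither gene separated the diets. The ubiquitin ligase gene *Cbl* was undetected.

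The Ras branch could not be read. None of the 4 genes with a probe was measured, namely the exchange factors *Sos1* and *Rapgef1*, the GTPase *Nras* and the phosphatase *Ptpn11*. *Ptpn11* reached a detection p under 0.05 on all 7 arrays with its best probe and *Rapgef1* one under 0.01 on 1 array.

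All 7 phosphoinositide kinase genes had a probe, and 5 were measured. Each of the 5 had a negative log2 fold change with all arrays, also with equal medians and with the authors' values, whereas *Pik3r2* turned positive without control replicates 3 and 4. *Pik3r3* and *Pi4ka* were selected by the study on these same arrays, so that their direction here is not independent evidence. The paper also measured *Pik3r3*, but not *Pi4ka*, by real-time PCR on the same RNA aliquots. It reported a comparable direction and a smaller fold change.

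*Pi4ka* encodes the phosphatidylinositol 4-kinase that supplies the plasma membrane with the precursor of the lipids on which the insulin signal runs. It read 9.27, 8.89, 10.11 and 10.17 on the control arrays and 8.77, 8.64 and 8.57 on the PFJ arrays. Every PFJ array lay below every control array, also below control replicates 1 and 2 alone, although the nearest values, 8.77 and 8.89, were close. The means were 9.61 ± 0.63 (SD, n = 4) and 8.66 ± 0.10 (SD, n = 3). The log2 fold change was -0.95 ± 0.36 (SE; 95% interval -1.80 to -0.10), with an unadjusted p of 0.0336 and an adjusted p of 0.535 from limma. It was -0.43 ± 0.22 without control replicates 3 and 4 (95% interval -0.95 to 0.10; unadjusted p = 0.0928, adjusted p = 0.999 from limma). Omission of control replicate 3 gave -0.79, of control replicate 4 -0.77, and of PFJ replicates 1, 2 and 3 -1.01, -0.93 and -0.90, where limma gave an unadjusted p of 0.0715, 0.0694, 0.0641, 0.0801 and 0.0895.

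*Pik3r3* encodes a small regulatory subunit of phosphatidylinositol 3-kinase. Its values were 8.33, 9.04, 10.85 and 11.01 on control replicates 1 to 4 and 7.86, 8.45 and 7.93 on PFJ replicates 1 to 3. Control replicates 3 and 4 stood 1.81 above the next array, and PFJ replicate 2 exceeded control replicate 1. From means of 9.81 ± 1.33 (SD, n = 4) and 8.08 ± 0.32 (SD, n = 3), the log2 fold change was -1.73 ± 0.70 (SE; 95% interval -3.39 to -0.07; unadjusted p = 0.0433, adjusted p = 0.535 from limma). Without control replicates 3 and 4 it was -0.61 ± 0.31 (95% interval -1.37 to 0.14, unadjusted p = 0.0947 from limma). After omission of control replicate 3 or 4 it was -1.39 or -1.34, and after omission of PFJ replicate 1, 2 or 3 it was -1.61, -1.90 or -1.65, with an unadjusted p of 0.0882, 0.0848, 0.111, 0.0685 and 0.107 from limma.

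**Figure D3:**
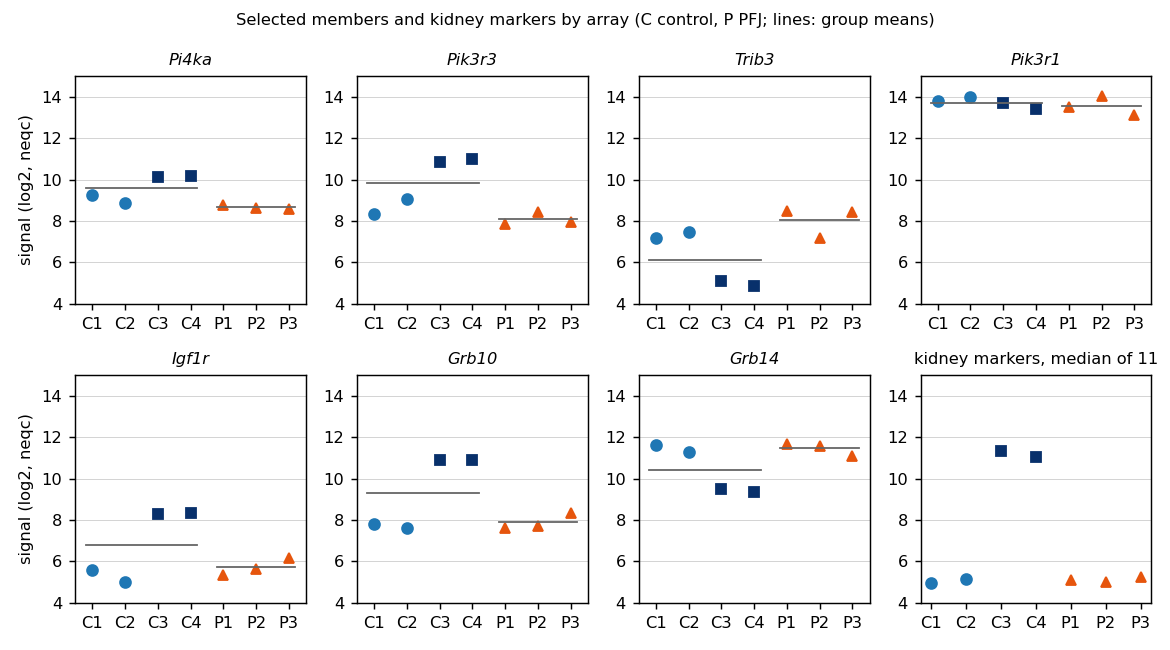
Log2 signal on each array for 7 insulin signalling genes and, in the last panel, the median of 11 kidney markers, with C1 to C4 the control and P1 to P3 the PFJ replicates and lines at the group means of the genes. C3 and C4 stand above the others for *Pi4ka*, *Pik3r3*, *Igf1r* and *Grb10* and below them for *Trib3* and *Grb14*, on the arrays where the kidney median is 11.34 and 11.04, while *Pik3r1* lies between 13.11 and 14.02 on all 7.

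The other subunits of the kinase gave smaller differences. *Pik3r1*, the main regulatory subunit in liver, read 13.77, 13.96, 13.68 and 13.41 on the control arrays and 13.49, 14.02 and 13.11 on the PFJ arrays. The groups overlapped, and the log2 fold change was -0.16 ± 0.27 (SE; 95% interval -0.81 to 0.48) with all arrays and -0.34 ± 0.32 (95% interval -1.10 to 0.43) without control replicates 3 and 4. A dimmer *Pik3r1* probe read 6.91, 7.68, 5.11 and 5.58 against 6.46, 7.07 and 5.33, low on control replicates 3 and 4 where the brighter probe was not, so that the probes disagreed on these arrays.

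*Pik3r2*, a regulatory subunit too, read 8.00, 7.96, 8.65 and 8.80 in controls and 8.30, 7.75 and 8.32 with PFJ, with log2 fold changes of -0.23 ± 0.30 (SE) and 0.15 ± 0.25 with and without control replicates 3 and 4. *Pik3cb*, the only catalytic subunit measured, read 7.11, 7.20, 8.62 and 8.44 against 7.42, 6.72 and 7.28, and its log2 fold changes were -0.70 ± 0.46 and -0.02 ± 0.26. With these probes control replicates 3 and 4 were the highest and the remaining controls lay among the PFJ values. A second *Pik3r2* probe that passed read 6.83, 6.31, 6.84 and 6.28 in controls and 6.37, 5.56 and 6.53 with PFJ, a log2 fold change of -0.41 with all arrays, and was not highest on both of those controls. *Pik3ca*, the catalytic subunit through which insulin mainly acts in mouse liver, was at background, with 4.65, 4.69, 4.75 and 5.03 in controls and 4.77, 4.89 and 4.80 with PFJ. The brightest of the 3 probes of *Pik3cd*, the catalytic subunit typical of leukocytes, read 4.92, 4.66, 5.13 and 5.12 against 4.83, 4.87 and 4.94.

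Downstream of the lipid signal, both Akt genes were at background. *Akt1* read 5.35, 4.95, 4.88 and 5.49 on the control arrays and 4.96, 4.64 and 4.70 on the PFJ arrays, with a lowest detection p of 0.0627. *Akt2*, the main Akt of hepatocytes, read 4.77, 4.95, 5.13 and 5.09 against 5.13, 5.04 and 4.81 with the brighter of its 2 probes. No statement on the level of either gene was possible with these probes.

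*Pdpk1*, the kinase PDK1 that activates Akt, was detected on all arrays at 10.61, 10.41, 10.99 and 10.98 in controls and 10.49, 10.37 and 10.66 with PFJ. Its log2 fold change was -0.24 ± 0.23 (SE) with all arrays and -0.00 ± 0.21 (95% interval -0.50 to 0.50) without control replicates 3 and 4, so that a change of up to 0.50 either way lay within the error. *Sgk1*, a kinase related to Akt that is also activated by PDK1 and promotes sodium uptake in the kidney, read 12.34, 12.54, 15.02 and 14.36 on the control arrays and 11.74, 12.47 and 12.16 on the PFJ arrays. Control replicates 3 and 4 exceeded the others by 1.82 or more.

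The log2 fold change of *Sgk1* was -1.45 ± 0.70 (SE; unadjusted p = 0.079, adjusted p = 0.535 from limma). It was -1.84 without control replicate 1 and -1.78 without control replicate 2, with an unadjusted p of 0.0298 and 0.0433 from limma, and -0.33 ± 0.27 without replicates 3 and 4. *Prkcz*, an atypical protein kinase C, spanned 10.62 to 12.35 and was highest on control replicates 3 and 4, with log2 fold changes of -0.68 ± 0.46 and -0.05 ± 0.35 with and without them. Its second probe gave -0.50 with all arrays. *Prkci*, the other atypical protein kinase C, was undetected.

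Of the 6 genes grouped here as Akt targets, only *Gsk3b*, which restrains glycogen synthase, was measured. It read 10.00, 9.81, 10.44 and 10.53 in controls and 10.00, 9.46 and 9.90 with PFJ, and the log2 fold change was -0.41 ± 0.27 (SE) with all arrays and -0.12 ± 0.24 without control replicates 3 and 4, the 2 highest. Its partner *Gsk3a* was at background, with 5.47, 5.12, 4.91 and 4.97 against 4.93, 4.83 and 4.91. *Foxo1*, the factor that drives gluconeogenic genes when insulin is low, was at background too, with 4.88, 4.82, 5.08 and 4.62 in controls and 5.22, 4.64 and 5.35 with PFJ. *Foxo3* and *Foxo4* were likewise undetected.

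In the mTOR branch 3 of 9 genes were measured, and for none did control replicates 3 and 4 lie above all others, as for *Grb10* and *Sgk1*. *Mtor*, the kinase of both mTOR complexes, read 6.56, 7.07, 6.71 and 6.81 on the control arrays and 6.27, 6.79 and 6.53 on the PFJ arrays, where it was detected on 2 of 3. With and without control replicates 3 and 4 its log2 fold change was -0.26 ± 0.22 (SE) and -0.27 ± 0.26, close to the detection limit and within the spread of the arrays (adjusted p = 0.587 and 0.999 from limma). *Rictor*, the defining subunit of mTOR complex 2, spanned 9.44 to 11.42, with both ends among the controls, and had log2 fold changes of -0.10 ± 0.47 and 0.43 ± 0.43. *Rheb*, the GTPase that switches on mTOR complex 1, was detected on 2 of 4 control and 1 of 3 PFJ arrays and had 0.14 ± 0.67 and -0.68 ± 0.52. It was undetected on control replicates 3 and 4, at 5.19 and 5.42, and on PFJ replicate 3, at 5.42. *Rptor*, *Tsc1*, *Tsc2*, *Rps6kb2* and *Eif4ebp1*, the other genes of the branch with a probe, were undetected.

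A further list of 50 proteins of the pathway, such as mitogen-activated protein kinases, scaffolds and vesicle proteins, had 40 genes with a probe and 20 measured. With all arrays 1 of the 20 was lower and 0 higher at an unadjusted p under 0.05 in limma, where 2.36% and 2.12% of all genes were. Without control replicates 3 and 4, 2 of 19 were lower and 0 higher, where 3.53% of all genes changed either way. The medians of their log2 fold changes were -0.38 and -0.12, against -0.01 for all genes in both fits. The study selected *Map3k2*, *Map3k11* and *Stxbp2* of this list on these arrays, so that their direction here is not independent evidence. The paper also measured these genes by real-time PCR on the same RNA aliquots. It reported comparable directions and smaller fold changes. *Map3k2*, a kinase of the mitogen-activated cascades, read 6.46, 6.42, 6.80 and 6.78 on the control arrays, all detected, and 5.54, 5.84 and 5.00 on the PFJ arrays, none detected. It was the gene called lower in the first fit and was called in the second too, but the detection rule admitted it through the control arrays alone, where it is high. Its PFJ signal was at least 1.136-fold lower than in controls, with each PFJ value raised to the lowest detected value of its array (adjusted p = 0.535 from limma). *Map3k11*, a kinase upstream of JNK, had log2 fold changes of -0.53 and -0.24 with and without control replicates 3 and 4, and *Stxbp2*, a protein of vesicle fusion, had -0.69 and -0.15, none past an unadjusted p of 0.05 in limma. *Pik3c2a*, a class II phosphatidylinositol 3-kinase, was lower without those 2 arrays only, at -0.76 (unadjusted p = 0.0398 from limma) against -0.46 with all arrays. On control replicates 3 and 4, 9 of the 20 genes lay above and 5 below the other 5 arrays, where 31.4% and 27.4% of all genes did. *Ehd2* was admitted through these 2 arrays alone, so it had to lie above. Among genes detected on any other array, 8 of 19 (42.1%) lay above, against 25.6% of all such genes.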

How the data were processed

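Per the labels and the paper's methods, biotinylated cRNA was hybridised to mouse BeadChips and the authors extracted signals with the Illumina software (GenomeStudio 2011.1 in the submitters' processing notes). The deposited table holds, for each of 25697 probes and each array, a mean intensity that was not normalised and a detection p-value against the negative controls. A second deposited table holds the authors' rank-invariant normalised intensity values, which were used only as an alternative, floored at 10 as in the methods. Probes were named by the platform annotation, which gave 23141 of them 1 symbol and the others none. Intensities were corrected and quantile normalised with neqc of limma 3.58.1 (R 4.3.3, offset 16, background inferred from the detection p-values), giving log2 values. Probes with a detection p under 0.01 on at least 2 arrays were kept, the one with the highest mean stood for its symbol, and groups were compared over all genes with lmFit and eBayes and Benjamini-Hochberg adjustment. The methods' custom error model needs bead-level spread and was not rebuilt. Between 4689 and 5137 probes per array were detected, and precision is limited by how few arrays there are. Values on every array are given for genes past an unadjusted p under 0.05, genes whose groups do not overlap, the receptors, *Irs1*, *Irs2*, class IA phosphatidylinositol 3-kinase subunits, *Pi4ka*, *Pdpk1*, *Akt1*, *Akt2*, *Gsk3a*, *Gsk3b*, *Foxo1*, *Mtor* and the 4 genes farthest apart on control replicates 3 and 4. *Gab1*, *Grb14* and *Shc1* were added to these after their values were seen. Members and lists were chosen with earlier results of these data known. The procedure was tested on simulated data, drawn from the means and spread of control replicates 1 and 2 and the PFJ arrays. That simulation held no split of control replicates 3 and 4, so it does not show how the fit behaves with them. Alternatives were the normalisation, background, detection filter, probe rule, variance model, replicate block and omission of arrays.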

Additional observations from a re-analysis of the deposited data

How the results depend on the processing

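The count of insulin signalling genes past an unadjusted p under 0.05 in limma was 3, and 2 or 3 with another normalisation, background, filter, probe rule or variance model. It was 0 without both control replicates 3 and 4, and 0 to 5 with 1 array left out (5 without control replicate 1 or 2, 1 without PFJ replicate 2, 0 otherwise). Deviations from the group mean correlated at 0.0803, 0.188 and 0.113 between arrays of the same replicate number. They carry the split of control replicates 3 and 4 from the others, so they cannot decide whether the numbers pair the arrays. With the number as a replicate block, where control replicate 4 has no PFJ array of its number, the count was 0 and the median log2 fold change -0.26. That median stayed negative throughout, from -0.52 with equal medians to -0.04 without control replicates 3 and 4, and from -0.48 to -0.23 with 1 array left out. With equal medians it lay -0.29 from that of all genes, and -0.24 in the original setting. With the authors' values *Trib3* was at 2.59 (unadjusted p = 0.0644 from limma). Over all genes, the unadjusted calls were 356 lower and 445 higher with no detection filter, 60 and 52 with detection on all 7 arrays, and 29 and 35 with the replicate block, and 353 and 304 without control replicate 1 against 30 and 37 without PFJ replicate 3.

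The sign of a log2 fold change turned for *Shc1* (-0.07) and *Inppl1* (-0.23) with equal medians, *Inppl1* (-0.07) with the authors' values, *Shc1* (-0.04), *Rheb* (-0.11) and *Rictor* (0.18) with the replicate block, and *Shc1* (-0.28), *Crk* (0.07), *Grb10* (0.19), *Pik3r2* (0.15), *Rheb* (-0.68) and *Rictor* (0.43) without control replicates 3 and 4. With 1 array left out it ranged over both signs for *Shc1* (-0.04 to 0.31), *Inppl1* (-0.18 to 0.19), *Pik3r1* (-0.40 to 0.05), *Rheb* (-0.39 to 0.60) and *Rictor* (-0.48 to 0.18). The cause was not tested. The 23 genes that did not pass the detection rule, *Insr*, *Irs1*, *Irs2*, *Akt1* and *Akt2* among them, stay undescribed at this signal, and with detection p under 0.05 on at least 2 arrays, a filter chosen after seeing the data, *Irs1*, *Grb2*, *Ptpn11* and *Rapgef1* would have been measured.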

Other observations

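Genes that insulin regulates in the liver were read beside the signalling genes themselves. Of 20 such genes listed, 17 had a probe and 8 were measured, and 0 were lower and 0 higher with PFJ at an unadjusted p under 0.05 in limma, with or without control replicates 3 and 4. Of all genes, 2.36% were lower and 2.12% higher with all arrays, and 3.53% passed in either direction without those 2. The median log2 fold change of the 8 genes was 1.06 with all arrays and -0.11 without control replicates 3 and 4. That of all genes was -0.01 in both. The list mixes genes that insulin induces with enzymes of glucose output, so this median does not read insulin action. With all arrays it also includes *Gys2* and *Scd1*, whose control values lie partly at background. On those 2 arrays 6 of the 8 lay below and 1 above the other 5, where 27.4% and 31.4% of all genes did. The 6 include *G6pc*, which was undetected on every control array. *Gys2*, the glycogen synthase of liver, read 11.12, 11.06, 5.03 and 5.10 on the control arrays and 11.24, 11.30 and 11.38 on the PFJ arrays. It was undetected on control replicates 3 and 4, and its log2 fold change without them was 0.21. *Scd1*, a fatty acid desaturase that insulin induces, read 11.23, 9.57, 4.81 and 5.68 against 8.67, 10.85 and 9.23, was undetected on the same 2 control arrays, and had a log2 fold change of -0.83 without them. With all arrays the differences of both genes rest on background values and are not given. *Fbp1*, an enzyme of gluconeogenesis, lay between 12.34 and 12.79 on all 7 arrays. *G6pc*, the last enzyme of glucose release, read 6.20, 6.14, 5.76 and 5.88 on the control arrays, none detected, and 6.68, 6.03 and 7.18 on the PFJ arrays, 2 of them detected. It was admitted through the PFJ arrays alone, and the groups overlapped.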
